A study of Mus musculus with 6 samples.

Results

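The replication-dependent histone genes were taken as every protein-coding gene of the mouse gene table whose symbol begins Hist1h, Hist2h, Hist3h or Hist4h, 67 of the 52550 genes listed and of the 21819 protein-coding genes among them. The rule reads gene symbols and no measured value, but it was chosen with earlier results of these data known. By class, 6 encode linker histone H1, 18 encode H2A, 18 encode H2B, 12 encode H3 and 13 encode H4. By place, 54 lie in the Hist1 cluster on chromosome 13, 10 in the Hist2 cluster on chromosome 3, 2 in the Hist3 cluster on chromosome 11 and 1, Hist4h4, on chromosome 6. The RNA came from sorted liver cells of CD-1 mouse embryos that carry the Sox9-GFP transgene, taken for their GFP, which marks cells that make SOX9, a transcription factor of the bile duct lineage. Replicates A, B and C make up 3 libraries labelled embryonic day 16 (E16) and 3 labelled embryonic day 18 (E18). These are the names in the labels, and the paper's methods give ages later within those days. Every library pooled 15 livers, and hematopoietic cells had been removed magnetically before the sort. All 6 libraries share the strain, the transgene and the sort, and differ in the labels only by stage and replicate letter. Libraries were prepared from total RNA with a stranded kit.

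Replication-dependent histone genes supply the proteins that package newly made DNA, and their mRNAs accumulate in S phase and are degraded when DNA synthesis ends. Their mRNAs are the exception among animal mRNAs in ending not with a poly(A) tail but with a short stem-loop, which stem-loop binding protein (SLBP) recognises during 3' end processing, export and translation. Some of the genes, Hist1h1c and Hist1h2bc among them, are known to give a polyadenylated form as well. In the fetal liver, bile duct cells arise from hepatoblasts that are still dividing.

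Units and reliability came first. Values are TPM, reads per gene divided by exon length and scaled to 1000000 in each library. Annotated exon length ran from 312 to 7425 bp over the histone genes, and some annotations extend past the stem-loop. Levels set side by side between histone genes therefore depend on the annotation as well as on reads. In E16 replicate A, Hist1h1d had 3267 reads and 51.3 TPM, and Hist1h4k had 565 reads and 211 TPM. Read counts recovered from the TPM put the depth at 13093937 to 26206374 reads per library. The labels call the cells cholangiocytes, whose 10 fixed markers summed to 948 to 2876 TPM at E16 and 8695 to 14716 TPM at E18, with 9 of the 10 higher at E18 at an adjusted p under 0.05 (limma, Benjamini-Hochberg). The 10 hepatoblast markers summed to far more at both stages, 176095 to 223620 TPM at E16 and 41101 to 101533 TPM at E18, with 5 called lower. Markers of megakaryocytes (3222 to 9383 TPM at E16, 94.6 to 748 TPM at E18, 8 of 8 lower), erythroid cells (367 to 384 and 163 to 536 TPM, 2 of 10 lower), leukocytes (65.2 to 110 and 44.0 to 134 TPM, 1 of 8 higher), mesenchyme (86.0 to 202 and 197 to 565 TPM, 1 of 6 higher) and endothelium (105 to 169 and 93.7 to 183 TPM, 0 of 6 called) were also present. In bulk RNA, fewer cells of a kind and less RNA per cell cannot be told apart, and neither can a histone mRNA made by a bile duct cell and one made by another dividing cell of the sort.

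The stem-loop is the sequence that sets these genes apart, so it was looked for in the annotated transcripts as 16 bases that start with GG, hold a 6-base stem with its reverse complement, and have a 4-base loop beginning TT. It was present in 44 of the 67 genes (65.7%), against 107 of 21884 other protein-coding genes (0.489%). The searches were unlike: histone genes were read from the stop codon onward, and the other genes over their whole transcripts. Of the 23 histone genes without it, 15 have fewer than 16 annotated bases after the stop codon, so the annotation of those genes ends before a stem-loop could be read. The stem-loop began 21 to 58 bases after the stop codon, with a median of 31. The most frequent form, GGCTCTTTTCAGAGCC, was found in 26 genes and in no gene of class H4, while 7 H4 genes held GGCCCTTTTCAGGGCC. Written out next, with 5 bases on either side and the stem-loop in capitals, are the stem-loops of 8 genes named in the results, chosen to cover the 5 classes and the forms of the loop, from GENCODE vM21 transcripts.
Hist1h1c: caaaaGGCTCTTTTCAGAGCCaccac
Hist1h2ab: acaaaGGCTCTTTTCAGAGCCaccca
Hist2h2ac: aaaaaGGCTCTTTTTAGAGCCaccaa
Hist1h2bg: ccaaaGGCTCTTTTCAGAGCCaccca
Hist1h3b: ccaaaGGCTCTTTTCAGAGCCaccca
Hist1h3e: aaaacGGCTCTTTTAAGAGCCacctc
Hist1h4h: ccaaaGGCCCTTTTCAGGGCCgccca
Hist2h4: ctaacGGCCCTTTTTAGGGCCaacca
The members of classes H1, H2A, H2B and H3 shown share either the most frequent form or one that differs in the loop, and both H4 stem-loops carry a different stem.

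Promoters divided the classes in another way. RefSeq promoter sequences (GRCm38.p6, 250 bases before to 50 bases after the start) were matched for 62 of the 67 genes. The letters CCAAT, searched on both strands, were in every matched promoter of H1 (6), H2A (18), H2B (16) and H3 (10) genes and in 3 of the 12 of H4 genes, against 37.9% of 27025 promoters of the same length. TATAAA, on either strand, was in 56.5% of the histone promoters and 14.2% of all. ATTTGCAT, the octamer known from H2B promoters, was in 7 of 18 H2A and 6 of 16 H2B promoters, in 0 of the other classes, and in 1.75% of all. H2A and H2B windows are not independent: in all 10 divergent H2A and H2B gene pairs with both promoters matched, the 2 windows share 220 to 279 bases, and in 3 of these pairs ATTTGCAT was counted in both genes. The promoters of Hist1h2bg (chr13:23571150-23571449, plus strand) and of Hist1h4k (chr13:21750504-21750803, minus strand) show the contrast, with each match to the 3 motifs in capitals. CCAAT and ATTTGCAT can overlap by the AT they share.
Hist1h2bg: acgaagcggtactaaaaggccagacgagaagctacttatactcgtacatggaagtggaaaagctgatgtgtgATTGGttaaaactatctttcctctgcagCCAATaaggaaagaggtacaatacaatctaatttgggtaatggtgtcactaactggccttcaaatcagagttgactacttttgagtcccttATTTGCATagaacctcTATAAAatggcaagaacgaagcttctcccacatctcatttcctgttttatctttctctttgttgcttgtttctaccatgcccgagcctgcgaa
Hist1h4k: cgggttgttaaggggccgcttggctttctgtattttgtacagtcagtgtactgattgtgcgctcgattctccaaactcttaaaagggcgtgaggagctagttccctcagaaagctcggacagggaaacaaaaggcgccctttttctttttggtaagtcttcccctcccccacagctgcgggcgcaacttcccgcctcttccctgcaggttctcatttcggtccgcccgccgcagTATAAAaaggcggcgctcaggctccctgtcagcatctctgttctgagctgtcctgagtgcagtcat
The H2B promoter holds all 3 motifs and the H4 promoter holds TATAAA alone. A match is a run of letters and was not tested as a binding site.

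The 67 genes summed to 3502, 4377 and 2878 TPM in E16 replicates A, B and C and to 2741, 5263 and 3047 TPM in E18 replicates A, B and C, which is 0.274% to 0.526% of all TPM. The lowest and the highest total were both E18 libraries, and the stages overlapped. Reads gave signal for 61 genes: 59 reached a mean of 1 TPM and entered the test between stages, Hist1h4b and Hist2h2ab lay under that filter at means of 0.497 and 0.832 TPM, and 6 were listed at 0 in every library. A count of 0 allows up to 3 reads, which is 0.192 to 1.94 TPM for those 6 genes and libraries. The 10 genes with the highest means held 48.7% of the histone TPM, and 14 genes had a mean over 100 TPM. The heat map of levels by library gives each gene, grouped by class.

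**Figure D1:**
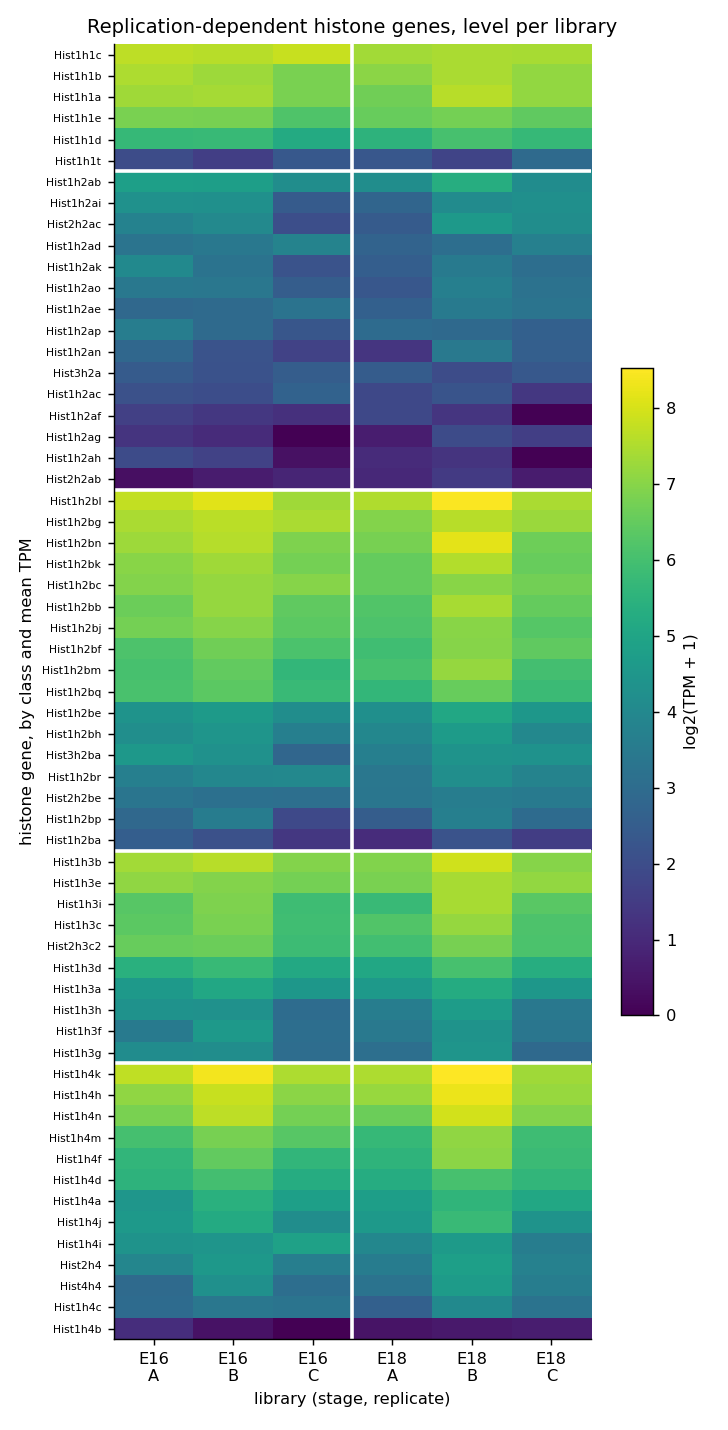
Level of the 61 histone genes with at least 1 read, as log2(TPM + 1), one row a gene (grouped by class H1, H2A, H2B, H3 and H4 from top to bottom, ordered by mean TPM) and one column a library. H2A rows are dark throughout, with no mean above 23.9 TPM, and the columns of replicate B are the brightest for most H2B, H3 and H4 genes.

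H2B held 36.7% of the histone TPM, H4 24.6%, H3 18.4%, H1 17.4% and H2A 2.96%. The nucleosome holds H2A and H2B in equal number, yet summed H2B transcripts exceeded summed H2A transcripts 9.80-fold to 14.8-fold in the 6 libraries. H2B summed to 1330 ± 273 TPM at E16 and 1336 ± 528 TPM at E18, H4 to 854 ± 274 and 931 ± 457 TPM, H3 to 645 ± 153 and 693 ± 267 TPM, H1 to 650 ± 78.5 and 616 ± 90.1 TPM, and H2A to 107 ± 30.4 and 108 ± 40.4 TPM (SD, n = 3 libraries each). Within a stage, the order in TPM of H2B first and H2A last held in all 6 libraries. In TPM, H1 and H3 lay closer than their spread and changed places between libraries.

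**Figure D2:**
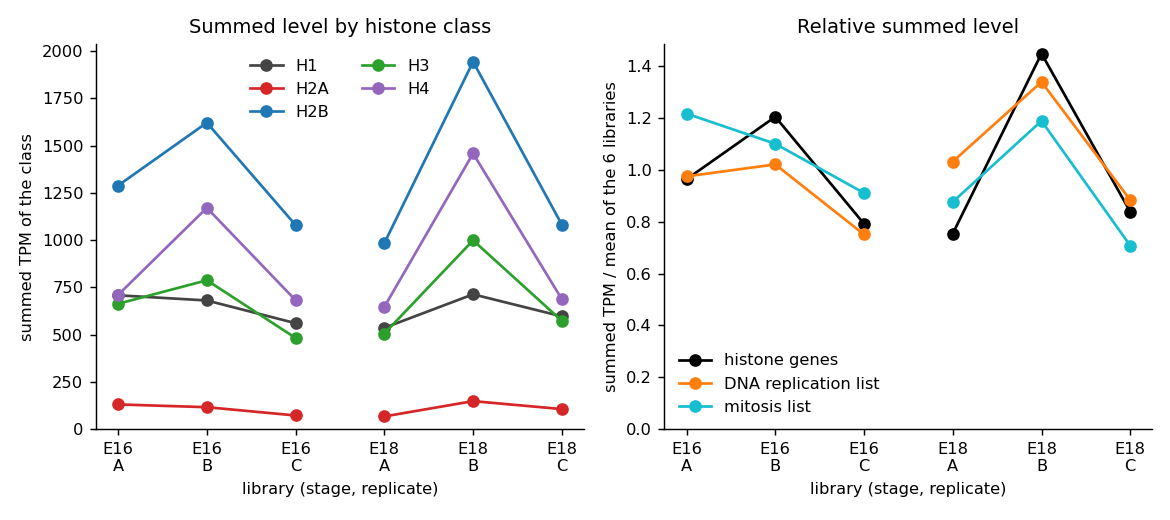
Left, summed TPM of each histone class in each library. Right, summed TPM of all histone genes, of the 25 DNA replication genes and of the 12 mitosis genes, each divided by its mean over the 6 libraries (lines join the libraries of a stage and carry no order). H2B is highest and H2A lowest in every library, and replicate B has the highest histone sum of its stage at both stages.

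Among the linker histones, which bind DNA between nucleosomes, Hist1h1c was the most abundant, at 203, 194 and 224 TPM in the E16 replicates A, B and C and 162, 172 and 171 TPM in the E18 replicates. All 3 E18 libraries lay below all 3 E16 libraries. Hist1h1b followed with 179, 156 and 111 TPM at E16 and 131, 172 and 141 TPM at E18, and its stages overlapped. Hist1h1a had 159, 167 and 113 TPM at E16 and 102, 195 and 140 TPM at E18. Hist1h1e had 113, 109 and 71.9 TPM at E16 and 92.4, 107 and 86.5 TPM at E18. Those 2 also overlapped between stages, as did Hist1h1d. Hist1h1d, whose annotated exon of 7425 bp is the longest of the family, had 51.3, 53.0 and 36.5 TPM at E16 and 44.9, 65.0 and 52.1 TPM at E18. Hist1h1t, the linker histone of male germ cells, averaged 3.69 TPM over the 6 libraries, while 4 germ cell markers summed to at most 0.79 TPM and Tnp1 among them was listed at 0 throughout.

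Hist1h4k had the highest mean of all histone genes, 238 TPM, above 98.6% of the protein-coding genes listed. It had 211, 330 and 179 TPM at E16 and 179, 369 and 160 TPM at E18, so that replicate B stood above A and C at both stages. Hist1h4h had 136, 224 and 132 TPM at E16 and 148, 312 and 147 TPM at E18. Hist1h4n had 113, 205 and 106 TPM at E16 and 96.2, 249 and 121 TPM at E18, the same ordering of B above A and C. The H4 genes with exons over 1000 bp were lower in TPM: Hist1h4d had 44.4, 62.8 and 37.7 TPM at E16 and 37.5, 65.2 and 48.0 TPM at E18. Hist2h4 had 14.0, 22.2 and 11.5 TPM at E16 and 10.9, 27.0 and 12.4 TPM at E18. Replicate B was again highest in both stages of each. Hist4h4, the lone gene on chromosome 6, had 6.80, 18.5 and 7.53 TPM at E16 and 8.48, 24.4 and 11.3 TPM at E18, the widest gap between B and the rest at E16 (2.58-fold over the mean of A and C). TPM divides by annotated exon length, 1138 bp for Hist1h4d and 430 bp for Hist1h4n. In reads at E16, Hist1h4d had 433, 557 and 342, and Hist1h4n had 415, 689 and 365. Hist2h4, with 196, 282 and 149 reads, and Hist4h4, with 167, 413 and 172, were lower than Hist1h4n in reads too.

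The first 60 coding bases of the 3 most abundant H4 genes show how the family differs in sequence. Capitals mark bases that differ from Hist1h4k at the same position.
Hist1h4k: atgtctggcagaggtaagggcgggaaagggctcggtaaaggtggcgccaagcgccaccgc
Hist1h4h: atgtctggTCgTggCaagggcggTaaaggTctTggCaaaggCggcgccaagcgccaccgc
Hist1h4n: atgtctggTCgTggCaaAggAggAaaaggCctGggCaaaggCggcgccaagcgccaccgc
Hist1h4h differs at 9 and Hist1h4n at 11 of these 60 positions, and over the 312 coding bases they are 95.5% and 95.2% identical to Hist1h4k. Pairs of H4 genes with coding sequences of equal length were 85.3% to 100% identical, with a median of 93.9%. Hist1h4m and Hist1h4n have identical coding sequences, as do Hist1h2ao and Hist1h2ap, Hist1h2bq and Hist1h2br, and Hist2h2aa1 and Hist2h2aa2. Reads within these sequences cannot be told apart between the genes of a pair. The paper's methods do not say whether such reads were counted, so the levels of these genes are uncertain.

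H2B genes filled much of the upper range. Hist1h2bl had 215, 286 and 157 TPM at E16 and 183, 358 and 174 TPM at E18, with replicate B highest in both. Hist1h2bg had 172, 200 and 174 TPM at E16 and 122, 193 and 151 TPM at E18. Hist1h2bn had 154, 192 and 116 TPM at E16 and 109, 292 and 99.5 TPM at E18. All 3 overlapped between stages. Of the H2B genes with long exons, Hist1h2bc was the highest, with 121, 145 and 126 TPM at E16 and 91.4, 129 and 104 TPM at E18. Hist1h2bq had 66.6, 82.0 and 54.6 TPM at E16 and 49.8, 91.7 and 55.7 TPM at E18. Hist1h2be had 20.1, 24.3 and 17 TPM at E16 and 17.9, 33.5 and 21.9 TPM at E18. Their stages overlapped. Hist1h2bh had 17.8, 21.0 and 11.9 TPM at E16 and 14.5, 24.5 and 14.8 TPM at E18. Hist1h2br had 11.9, 14.4 and 14.7 TPM at E16 and 9.32, 17.4 and 13.1 TPM at E18. These also overlapped between stages, with an E18 library both lowest and highest for Hist1h2br. Hist2h2be, with 9.04, 7.83 and 7.70 TPM at E16 and 9.15, 11.1 and 10.3 TPM at E18, was the second of the 2 histone genes whose stages did not overlap, here with E18 above E16. Hist1h2ba, the H2B gene of the male germ line, averaged 2.74 TPM.

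Of the H3 genes, Hist1h3b was highest, with 161, 194 and 123 TPM at E16 and 120, 242 and 126 TPM at E18. Hist1h3e had 139, 124 and 107 TPM at E16 and 111, 168 and 140 TPM at E18. Hist1h3i had 78.0, 116 and 57.3 TPM at E16 and 54.4, 169 and 81.5 TPM at E18. Each of the 3 overlapped between stages, and replicate B was highest at both stages for Hist1h3b and Hist1h3i but not for Hist1h3e, where replicate A led at E16. Hist2h3c2, the gene of the Hist2 cluster with the highest mean TPM, had 91.8, 97.7 and 57.3 TPM at E16 and 60.9, 109 and 68.3 TPM at E18. Hist1h3d had 42.1, 52.2 and 34.8 TPM at E16 and 33.9, 65.0 and 39.0 TPM at E18. Hist1h3f had 10.4, 23.1 and 7.56 TPM at E16 and 9.97, 19.9 and 9.18 TPM at E18. In these 3 genes, whose exons are over 1000 bp, replicate B was highest at both stages.

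The H2A genes were the lowest class. Hist1h2ab led with 27.1, 26.6 and 17 TPM at E16 and 17, 38.9 and 16.7 TPM at E18. Hist1h2ai had 19.0, 18.6 and 4.47 TPM at E16 and 5.95, 16.4 and 18.2 TPM at E18. Hist2h2ac had 12.8, 15.3 and 3.13 TPM at E16 and 4.50, 23.0 and 17 TPM at E18. For all 3 the libraries of one stage spread more widely than the stages differed. The 18 H2A genes together took 253 to 652 reads per library, against 3348 to 8994 reads for the 18 H2B genes. The openings of the coding sequences of the 3 highest H2A genes and of Hist1h2ad, with capitals where they differ from Hist1h2ab, show the likeness of the class.
Hist1h2ab: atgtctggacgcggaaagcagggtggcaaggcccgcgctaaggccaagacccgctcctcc
Hist1h2ai: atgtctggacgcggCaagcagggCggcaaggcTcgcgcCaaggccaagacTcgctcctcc
Hist2h2ac: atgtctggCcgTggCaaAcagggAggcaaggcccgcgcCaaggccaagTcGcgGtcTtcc
Hist1h2ad: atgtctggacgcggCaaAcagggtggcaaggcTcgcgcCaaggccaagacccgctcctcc
They differ from Hist1h2ab at 5, 10 and 4 of the 60 positions. Over pairs of H2A genes with coding sequences of equal length the median identity was 96.4%.

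What the H2A genes share beyond their protein is the annotation around them. Every one of the 18 shares part of its exon sequence with another annotated gene, against 1 of 6 H1, 2 of 18 H2B, 2 of 12 H3 and 1 of 13 H4 genes. In 17 of the 18 it overlaps a short gene annotated as a miRNA on the opposite strand, 129 to 144 bases long, and no histone gene of another class does. For 14 of these that gene is the largest overlap, and 9.91% to 35.9% of the exon sequence is shared with other genes. All 17 of these miRNA genes were listed at 0 TPM in all 6 libraries. Counting programs of the kind used can leave out reads that lie over 2 genes, which depends on the strand setting, and that setting is not given in the sources used here. Its part in the low H2A levels was not tested. Over the whole family, the 24 genes that share exon sequence with another gene had a median of 3.67 TPM (range 0 to 96.7), and the 43 that do not had a median of 69.5 TPM (range 2.74 to 238). The 24 include all 18 H2A genes, so class and overlap cannot be told apart in this contrast.

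Overlap and shared sequence, which are not independent measures here, also met at the genes listed at 0. Hist2h2aa1, Hist2h2aa2, Hist2h2bb, Hist2h3b and Hist2h3c1 are covered over 100% of their exon sequence by other annotated genes. The largest overlaps are with Gm20633, Gm20632, Gm20628 and Gm20634, which themselves had between 0 and 5.73 TPM, and Hist2h2bb also overlaps the same-strand Gm42743, which had 8.96 to 14.3 TPM. Cut into 50-base stretches, their transcripts hold 0% that occur in no other gene's transcripts. These 5 were the only histone genes at 0% of unique sequence. A stretch counted as shared if it, or its reverse complement, lay in another gene's transcript. An overlapping gene on either strand therefore lowers the unique share. The 6th gene at 0, Hist1h2aa, the H2A of the male germ line, had 76.2% unique stretches and an opposite-strand miRNA gene over 33.1% of its exon. The 2 genes under the filter were also overlapped by antisense genes, Hist2h2ab over 68.2% and Hist1h4b over 56.2%. For the 5 genes with no unique sequence, a level listed at 0 therefore does not show that the gene was silent. Across classes the median share of unique stretches was 98.9% for H1, 60.5% for H4, 53.1% for H2B, 38.0% for H3 and 27.0% for H2A. These shares also fall with overlapping genes, such as the opposite-strand miRNA genes of H2A, so they do not measure likeness between family members alone.

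**Figure D3:**
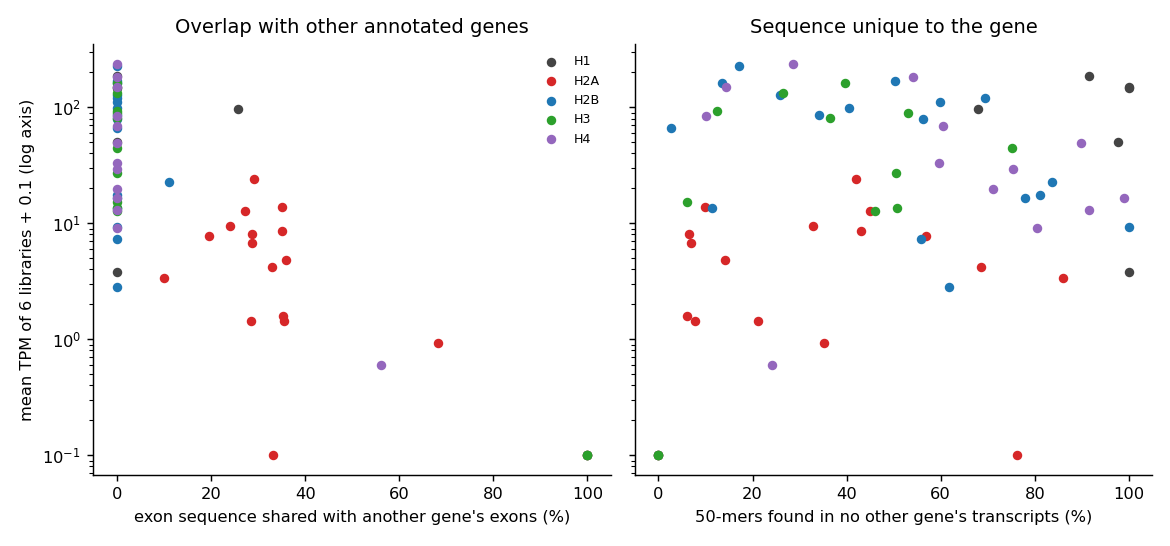
Mean TPM over the 6 libraries plus 0.1 (log axis) of the 67 histone genes, coloured by class. Left, against the percent of exon sequence shared with exons of another annotated gene. Right, against the percent of 50-base stretches found in no other gene's transcripts on either strand. The 5 genes at 100% overlap and at 0% unique sequence lie on top of each other at 0 TPM, and the H2A genes are the only class with every point to the right of 0% overlap.

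H2A and H2B genes stand in divergent pairs, and the pairs repeated the difference between the classes. There were 12 pairs of histone genes on opposite strands with starts within 500 bp and pointing away from each other, all of 1 H2A and 1 H2B gene, 176 to 306 bp apart. The H2B gene had the higher mean TPM in 11 of the 12. In the 10 of these with both genes above 0, it was 1.53-fold to 95.7-fold higher, with a median of 17.8-fold. In the pair with the highest sum, Hist1h2bl averaged 229 TPM and Hist1h2ai 13.8 TPM, a ratio of 16.6. In the next, Hist1h2bg averaged 169 TPM and Hist1h2ae 7.66 TPM, a ratio of 22.0. Hist1h2ae had 6.46, 6.74 and 8.55 TPM at E16 and 5.19, 10.3 and 8.74 TPM at E18. The exception was Hist2h2ac with 12.6 TPM beside Hist2h2be with 9.20 TPM. Each H2A gene of these pairs has the opposite-strand annotation described above.

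The stages were compared to ask whether histone transcripts changed as the ducts developed from E16 to E18. Of the 59 histone genes tested, 0 were called at an adjusted p under 0.05 (limma on log2(TPM + 1), Benjamini-Hochberg over 22452 genes), against 31.2% of all genes tested. In each direction the background was 26.0% higher and 5.22% lower at E18. At an unadjusted p under 0.05 there was 1 histone gene, against 46.7% of all genes. Limma voom on recovered reads called 1 of the 59, against 5563 of the 20425 genes it tested. Stages did not overlap for 2 of the 59 (3.39%), against 53.3% of all genes tested. The median log2 fold change was 0.01, with 31 genes above and 28 below 0 and a range of -0.56 to 0.63, while the median over all genes tested was 0.42. Summed histone TPM was 3586 ± 753 at E16 and 3683 ± 1376 at E18 (SD, n = 3), a ratio of 1.03.

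How far a change can be bounded differs by gene. The 95% interval of the log2 fold change lay within 1 on either side of 0 for 34 of the 59, so that for the rest a change of that size was not bounded by these data. It held 0 for 58 genes, lay wholly below the all-gene median of 0.42 for 7 and held that median for 52. The median standard error of the log2 fold change was 0.33, against 0.24 for all genes. Hist1h1c had the narrowest standard error of the 6 linker histones, 0.11, and the lowest adjusted p of all histone genes, 0.0684 (limma, Benjamini-Hochberg), with a log2 fold change of -0.29 (95% interval -0.54 to -0.05). Hist2h2be had a log2 fold change of 0.29 (95% interval -0.11 to 0.68, adjusted p = 0.213 in limma). For Hist1h4k the interval was -0.92 to 0.76, for Hist1h2bl -0.69 to 0.85, for Hist1h3b -0.72 to 0.68 and for Hist1h2ab -0.87 to 0.78.

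**Figure D4:**
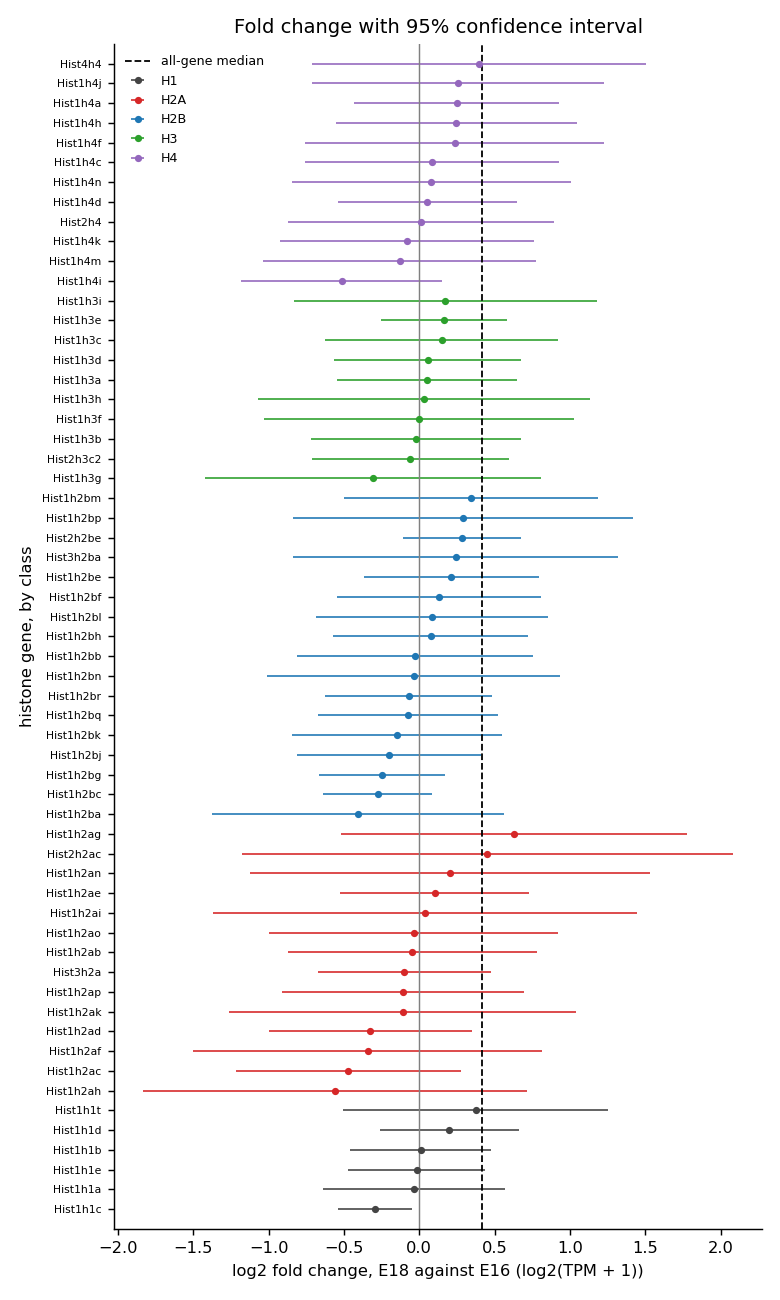
Log2 fold change, E18 against E16, of the 59 histone genes tested, on log2(TPM + 1), with 95% confidence intervals from limma (n = 3 libraries a stage), coloured by class. The dashed line is the median of all genes tested, 0.42. Of the 59 intervals, 58 hold 0 and 7 lie wholly to the left of the dashed line.

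The direction depended on how the libraries were scaled to each other. With median-of-ratios scaling, which sets the typical gene equal between libraries, the median over all genes fell from 0.42 to 0.01, the share of all calls that were higher at E18 fell from 83.3% to 38.1%, and the histone median was -0.43. This scaling multiplies each library by 1 factor, so it shifts histone and other genes together. With that scaling 4 histone genes were called lower, Hist1h2bc, Hist1h1c, Hist1h1e and Hist1h2bg, against 10.5% of all genes called lower. Their log2 fold changes were -0.74, -0.76, -0.48 and -0.71. By class, the median log2 fold change on the deposited scale was -0.0044 for H1, -0.07 for H2A, -0.03 for H2B, 0.04 for H3 and 0.08 for H4, all small beside the standard errors. Results also rested on single libraries: leaving out E18 replicate A took the calls over all genes from 7000 to 1148, and leaving out E18 replicate B took them to 2499, with 0 histone genes called either way.

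Among the libraries of a stage, replicate B stood apart. Replicate B was the highest of its stage at both stages for 35 of the 59 histone genes (59.3%), against 20.3% of all genes tested. At E18 it was highest for 53 of the 59 (54.2% of all genes) and at E16 for 35 (33.8%). The ratio of replicate B to the mean of A and C had a median of 1.35 at E16 and 1.78 at E18 over histone genes, against 1.03 and 1.12 over all genes. Replicate B at E16 and at E18 are separate pools, and no label says whether libraries of a letter share a batch.

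By class, the ratios were as follows, with no test between classes. For H4 genes the median ratio was 1.70 at E16 and 2.29 at E18, with replicate B highest at both stages for 11 of 12 tested. For H3 genes it was 1.43 and 1.98 (8 of 10), and for H2B genes 1.34 and 1.75 (13 of 17). For H1 genes it was 1.13 and 1.23 (2 of 6). For H2A genes it was 0.94 and 1.71 (1 of 14). Hist1h1c, at 0.91 and 1.03, was close to the all-gene medians. Among genes with a stem-loop, the 17 tested with over 200 annotated bases after it had median ratios of 1.31 and 1.69 and the 23 others tested 1.46 and 2.0. Recovered reads of replicates A, B and C were 26206374, 23193537 and 23457078 at E16 and 22643868, 17057572 and 13093937 at E18. Marker sums also differed between replicates. Cholangiocyte markers were highest in replicate B at both stages, at 2876 TPM against 2342 and 948 in A and C at E16 and 14716 against 12464 and 8695 at E18. At E18 the markers of erythroid cells (536 against 163 and 235 TPM), megakaryocytes (748 against 94.6 and 219 TPM) and leukocytes (134 against 44.0 and 57.9 TPM) were also highest in replicate B, and those of hepatoblasts lowest (41101 against 84487 and 101533 TPM). At E16 the replicate B sums of these 3 blood lists were not the highest, at 367, 3222 and 65.2 TPM, and the hepatoblast sum of 184997 TPM lay between those of A and C. Mesenchymal and endothelial sums were lowest in replicate B at E16 and lay between A and C at E18. The part of depth or of any of these cells in the histone levels was not tested.

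**Figure D5:**
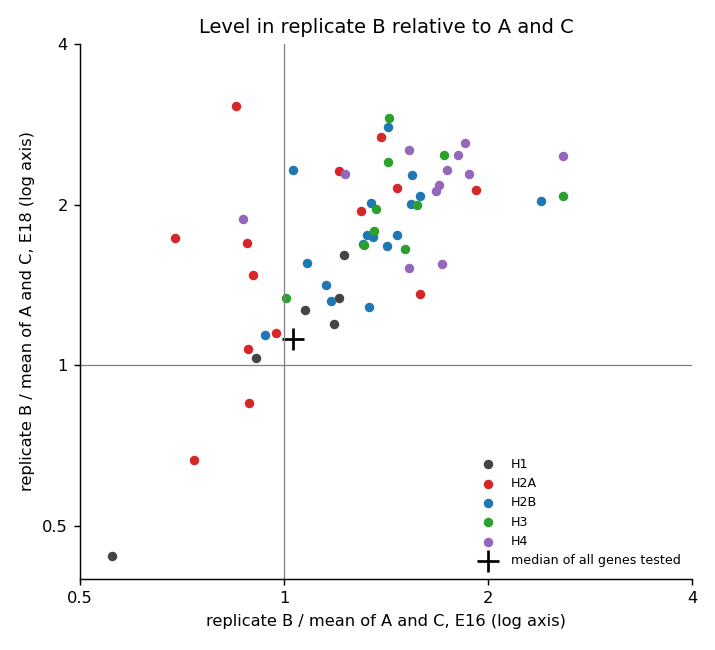
Ratio of replicate B to the mean of replicates A and C at E16 (horizontal, log axis) and at E18 (vertical, log axis) for the 59 histone genes tested, coloured by class, with the medians of all genes tested (1.03 and 1.12) as a cross. Of the 59 points, 47 lie above 1 on both axes, H4 genes farthest out as a class.

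Other genes of the S phase programme give a setting for this. The 25 DNA replication genes, such as the helicase subunits Mcm2 to Mcm7 and the sliding clamp Pcna, summed to 1123, 1176 and 865 TPM at E16 and 1189, 1543 and 1018 TPM at E18. Replicate B was highest at both stages for 17 of the 25, beside 20.3% of all genes tested. Between stages 1 of 25 was called higher and 1 lower, beside 26.0% and 5.22% of all genes tested, with a median of 0.16. The call higher was Pola1, the catalytic subunit of DNA polymerase alpha, with 26.9, 31.2 and 18.0 TPM at E16 and 43.0, 54.9 and 35.8 TPM at E18. The call lower was Ccne1, cyclin E1, with 26.9, 26.8 and 21.2 TPM at E16 and 11.6, 13.6 and 10.8 TPM at E18, a log2 fold change of -0.996 (adjusted p = 0.011 in limma, Benjamini-Hochberg). Mcm6 and Mcm7, the most abundant of the list, averaged 117 and 110 TPM and were not called. The 12 mitosis genes, led by Mki67 and Ccnb2, summed to 690, 624 and 517 TPM at E16 and 497, 674 and 402 TPM at E18. Replicate B was highest at both stages for 0 of the 12, beside the same 20.3% of all genes. None of the 12 was called by limma on the deposited scale, at a median of -0.23, and 10 were called lower with median-of-ratios scaling, beside 10.5% of all genes.

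Replication-independent variants are made outside S phase as well, mostly from polyadenylated mRNA, and can replace histones already in place. Of 11 such genes, 1 was called higher at E18 and 0 lower, beside 26.0% and 5.22% of all genes tested, with a median log2 fold change of 0.19. It was H2afv, a gene of the H2A.Z type, with 35.5, 42.6 and 30.7 TPM at E16 and 70.0, 76.2 and 56.2 TPM at E18, a log2 fold change of 0.88 (95% interval 0.48 to 1.28, adjusted p = 0.015 in limma, Benjamini-Hochberg). H3f3b, which encodes the H3.3 variant, had the highest mean of the 11, with 576, 484 and 558 TPM at E16 and 528, 487 and 486 TPM at E18. H1f0, the linker histone of non-dividing cells, had 297, 283 and 281 TPM at E16 and 396, 370 and 287 TPM at E18. Replicate B was highest at both stages for 3 of the 11, beside 20.3% of all genes tested. The sum of the 11 was 1081 to 1194 TPM at E16 and 1040 to 1249 TPM at E18. With median-of-ratios scaling 0 of the 11 were called higher and 3 lower, beside 16.9% of all genes called either way and 10.5% called lower.

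The next list holds genes that act on histone genes and histone mRNA. Of 13 genes of histone transcription and 3' end processing, 4 were called higher at E18 and 0 lower, beside 26.0% and 5.22% of all genes tested, with a median of 0.39. Slbp, which encodes the protein that binds the stem-loop printed above, had 21.3, 21.0 and 16.9 TPM at E16 and 29.3, 35.4 and 28.7 TPM at E18, a log2 fold change of 0.63. Npat, the coactivator of histone transcription, had 32.8, 34.6 and 28.5 TPM at E16 and 49.3, 53.4 and 44.5 TPM at E18. Hinfp, which binds H4 promoters, and Sympk, the scaffold of the cleavage complex, were the other 2 called, with log2 fold changes of 0.55 and 0.46. Upf1 and Cpsf3, the most abundant of the list, averaged 94.6 and 68.5 TPM and were not called. With median-of-ratios scaling 0 of the 13 were called higher and 1 lower, beside 16.9% of all genes called either way and 10.5% called lower. Without E18 replicate A 0 were called, beside 1148 of all 22452 genes. Without E18 replicate B 0 were called, beside 2499.

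Of 16 histone chaperones and deposition factors, 6 were called higher at E18 and 0 lower, beside 26.0% and 5.22% of all genes tested, at a median of 0.49 beside 0.42. The 5 most abundant of these were Nap1l1, a chaperone of H2A and H2B, Atrx and Daxx, which deposit H3.3, and Cabin1 and Ubn1, partners of HIRA in a second H3.3 pathway, with log2 fold changes of 0.66, 0.81, 0.49, 0.81 and 0.53. Chaf1a, a subunit of the complex that deposits histones behind the replication fork, had 35.9, 35.1 and 23.0 TPM at E16 and 33.1, 42.5 and 28.4 TPM at E18 and was not called. Ssrp1 and Rbbp4 were the most abundant of the list at means of 134 and 97.7 TPM and were not called. With median-of-ratios scaling 2 of the 16 were called higher and 1 lower, beside 16.9% of all genes called either way and 10.5% called lower. Without E18 replicate A 0 were called, beside 1148 of all 22452 genes.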

How the data were processed

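The authors checked reads with FastQC 0.11.7, trimmed them and aligned them to GRCm38 with HISAT2 2.1.0. Counts per gene from HTSeq 0.5.4p3, with GENCODE vM15, became the deposited TPM (transcripts per total of 1000000). Symbols, exon lengths and transcripts came from GENCODE vM21, which held 52403 of 52550 listed genes (147 were not matched). Reads were recovered as whole multiples of the value of 1 read: all 180057 nonzero values of genes with an unchanged version came out whole within 0.01 (100%). Promoters came from RefSeq.

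E18 was set against E16 in limma 3.58.1 (R 4.3.3, eBayes with trend), on log2(TPM + 1). The 22452 genes that reached a mean of 1 TPM were tested, and p-values were adjusted by Benjamini-Hochberg. Fold changes on this scale understate those of low genes. Calls had an adjusted p under 0.05. Tables were made in Python 3.11.15. The fit was tested on simulated data.

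Members, lists and tests were chosen with earlier results of these data known. Named with values were the 3 most abundant genes of each class, genes with over 1000 bp of exon and at least 5 TPM, the 2 most abundant divergent pairs, and, of each list, called genes (at most 5) and the 2 most abundant. Genes listed at 0, under the filter or of the male germ line, Hist1h1t and Hist1h2ba included, Hist1h2ad and Chaf1a were named after their values were seen or for their sequence. Alternatives were other pseudocounts, filters and scalings, voom, a replicate block, and leaving out each library. The labels do not say whether pools came from separate litters, so p-values measure the spread between these 6 libraries, and limits from reads cover counting error only.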

Additional observations from a re-analysis of the deposited data

How the results depend on the processing

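The count of 0 histone genes called higher held under all 16 alternatives, and the count of 0 called lower held under all but median-of-ratios scaling (4) and limma voom on recovered reads (1). Over all genes, median-of-ratios scaling called 10.5% lower, and voom called 5563 of 20425 in either direction. The median log2 fold change of the histone genes moved to -0.43 with median-of-ratios scaling. Over all genes, 7000 calls became 4282 with no filter on low values, 3795 with median-of-ratios scaling and 440 with both B libraries left out, an alternative chosen after seeing the data, which gave a histone median of -0.12. Leaving out each library in turn gave 1148 to 5432 calls over all genes, 0 histone genes called, and a histone median between -0.27 (without E18 replicate B) and 0.20 (without E18 replicate A). The cause of these shifts was not tested.

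With a replicate block 7314 genes and 0 histone genes were called, and the lowest adjusted p of a histone gene in limma was 0.0579. Libraries of the same letter had correlations of their deviations of -0.042 (A), 0.081 (B) and 0.140 (C). The labels name no pairing, so the libraries were not taken as paired. These correlations cannot show whether libraries of a letter shared a litter, day or batch.

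The adjusted p of Hist1h1c in limma lay between 0.0205 and 0.188 over the alternatives, with a log2 fold change between -0.76 and -0.21. Low reads limit the H2A genes, and sequence shared between family members limits every comparison of neighbouring genes.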
